A study of Mus musculus with 54 samples.

Results

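The response to swimming in skeletal muscle was set against the response in visceral white adipose tissue of the same mouse strain. The arrays were chosen by their tissue and treatment labels, which gave 15 of the 54 arrays of the series: 3 swim and 4 control arrays of skeletal muscle, and 4 swim and 4 control arrays of visceral fat. All mice were C57BL/6 and labelled as 14 weeks old. Swim mice entered training at 11 to 12 weeks of age, with daily sessions lengthened in steps of 10 minutes over 9 days of acclimation. They then swam for 3 weeks with 2 sessions a day of 90 minutes and 4 hours of rest in between. Control mice carried the label control and no other treatment. The labels named neither the muscle, the fat depot, the sex, the batch, the time of day of collection nor the time between the last session and tissue collection. They also did not say whether muscle and fat came from the same mice, so arrays were treated as independent samples and p-values measured the spread between these arrays, which may be technical.

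The molecular clock is a transcriptional loop in which the activators Arntl (BMAL1), Npas2 and Clock drive genes of their own repressors, the Per, Cry, Nr1d and Bhlhe families, so that activators and repressors peak at opposite times of day in nearly every tissue, muscle and fat included. De novo lipogenesis turns citrate into fatty acids through Acly, Acaca and Fasn, then elongates and desaturates them through Elovl and Scd enzymes, and it is far more active in white fat than in muscle fibres. Skeletal muscle meets the work of swimming directly, whereas visceral fat stores and releases lipid, surrounds abdominal organs and houses many macrophages.

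Median probe set signal lay between 45.92 and 90.95 intensity units over the 15 arrays, and the number of arrays limits the precision. Levels below are log2(signal + 16) after quantile scaling within each tissue, so 1 unit is a doubling, and a level in muscle is not set against a level in fat. Defining markers stood high in their labelled tissue. Ckm, the muscle creatine kinase, lay between 14.00 and 14.06 in muscle arrays, and Adipoq, the adipocyte hormone adiponectin, between 12.77 and 13.08 in fat arrays. Muscle arrays differed in adipocyte markers. Adipoq stood at 7.80, 9.60 and 9.20 in swim muscle, against 8.37, 6.27, 8.41 and 8.19 in control muscle, and the mean of Adipoq, Plin1 and Cidec was 7.66, 9.35 and 9.12 in swim muscle, against 8.37, 6.39, 8.22 and 7.98 in control muscle. The control array numbered 42 had the lowest value of these 3 markers and also stood apart in Myh7, the slow-fibre myosin, at 5.02 against 9.26 to 11.66 in the other muscle arrays, a gene chosen after its values were seen. Ucp1, the brown fat uncoupling protein, ranged from 4.61 to 8.21 in swim muscle and from 4.87 to 7.31 in control muscle. Alb, the liver's albumin, ranged from 8.25 to 11.02 in swim muscle, from 6.02 to 11.30 in control muscle, from 7.39 to 10.04 in swim fat and from 7.22 to 10.05 in control fat. Skin (Krt14), lymph node (Glycam1), epididymis (Lcn5) and kidney (Umod) markers were among the dim probe sets in both tissues. Of 3 lymph node stroma genes measured in fat, however, 2 fell by limma, beside 12.1% of all measured genes. Their mean level was 7.31 to 7.82 in swim fat and 7.90 to 8.60 in control fat, without overlap. For 10 mesothelial genes it was 7.55 to 8.65 in swim fat and 7.78 to 8.72 in control fat. Whether the amount of such tissue differed was not tested.

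Swim and control mice differed in both tissues. Of 11344 genes measured in muscle, 645 rose (5.69%) and 645 fell (5.69%). Of 11461 genes measured in visceral fat, 1299 rose (11.3%) and 1385 fell (12.1%). At an unadjusted p under 0.05 by limma, 1625 rose and 1952 fell in muscle, and 1944 rose and 2394 fell in fat. The question of whether the 2 tissues responded alike was put to the 10499 genes measured in both, through the difference between the muscle effect and the fat effect in 1 limma fit with Benjamini-Hochberg adjustment. That difference passed the threshold of 0.05 for 1473 genes, with the muscle effect above the fat effect for 726 (6.91%) and below it for 747 (7.11%). Of these, 273 were called in muscle alone, 835 in fat alone, 97 in both and 268 in neither tissue taken by itself.

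Calls in the same direction in both tissues numbered 312, of which 195 were higher in both (1.86%) and 117 lower in both (1.11%). They made up 26.5% of the 1178 genes called in muscle and 12.7% of the 2450 called in fat among genes measured in both. The change was larger in fat for 208 of the 312, and the difference between tissues passed the test for 30. Calls in opposite directions numbered 67, with 39 higher in muscle and lower in fat (0.371%) and 28 lower in muscle and higher in fat (0.267%), and the difference passed the test for all 67. Across genes the 2 effects had a Pearson correlation of 0.247, a description only, since genes are not independent replicates. In the plot of the 2 effects, clock genes sit at both ends of the diagonal.

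**Figure D1:**
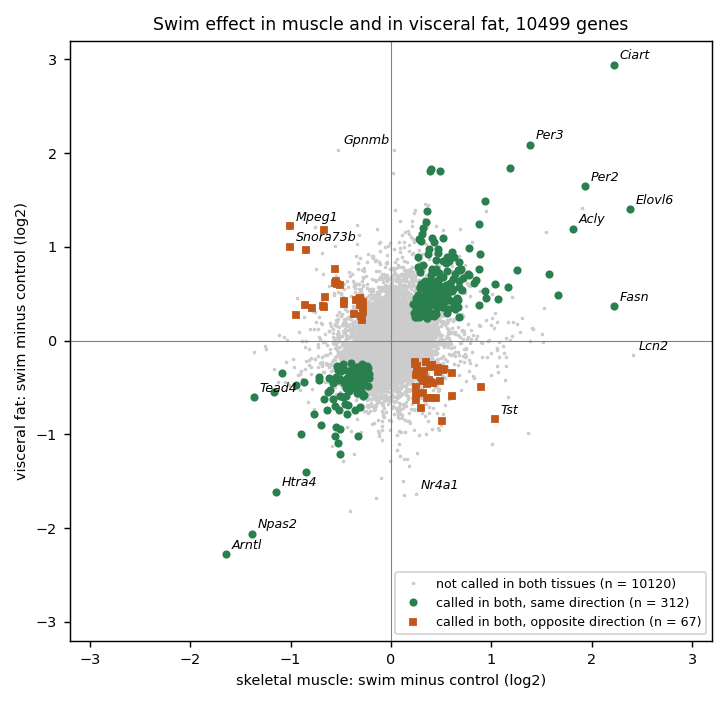
Swim minus control in skeletal muscle (horizontal) and in visceral fat (vertical), both in log2 units, 1 point per gene for the 10499 genes measured in both. Green circles are the 312 genes called in both tissues in the same direction, orange squares the 67 called in opposite directions and grey points the rest. Ciart, Per3 and Per2 lie at the upper right, Arntl and Npas2 at the lower left.

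Directions in fat depended on the scaling. Quantile scaling left the median over all measured genes at -0.02 in muscle and -0.03 in fat, whereas unscaled values gave -0.23 and -0.10 and arrays centred on their medians -0.11 and -0.22. Centring on medians gave 697 genes higher and 4510 lower in fat, 213 and 680 in muscle, 54 and 290 in both, and 1262 and 396 for the difference. Unscaled values gave 274 and 327 in fat, 90 and 318 in muscle, 12 and 19 in both, and 47 and 143 for the difference. The sign of the difference was the same as with quantile scaling for all 1473 genes unscaled and for 1472 of them with centring.

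These counts rested on few muscle arrays. Without the swim array numbered 46, muscle calls numbered 68, shared changes 26, opposite changes 7 and differences between tissues 851. Without swim array 47 muscle calls numbered 479, and without control arrays 41, 42, 43 and 44 they numbered 480, 842, 511 and 493. Shared changes numbered 109 without swim array 47, and 120, 148 and 135 without control arrays 41, 43 and 44. Opposite changes numbered 25 without swim array 47, and 30, 43, 33 and 28 without control arrays 41, 42, 43 and 44. Among fat arrays, leaving out swim arrays 6 and 7 or control array 4 gave 43, 37 and 42 opposite changes, and leaving out swim array 7 gave 1697 fat calls. Genes shared in the fit of all 15 arrays and in each of the 15 fits with an array left out numbered 21, among them Arntl, Npas2, Per2, Per3, Hlf, Wee1, Tspan4 and Tead4. Opposite changes called in all of those fits numbered 3, which were Tst, Bcat2 and Wsb1 (the last chosen after its values were seen). The difference between tissues was called in all of them for 695 genes. Of the genes named here, 16 of 56 called in muscle were called in each of the 7 fits with a muscle array left out, 53 of 74 called in fat in each of 8, and 45 of 58 differences in each of 15. Among those 45, Cnn1 was tested in 14 fits.

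The activators Arntl, Npas2 and Clock fell in both tissues, and the repressors Ciart, Per1, Per2 and Per3 rose in both. The labels gave no time of day of collection. A difference in that time between the groups cannot be told apart from swimming and was not tested. Of 5 measured clock activators, 3 fell in muscle, and in fat the same 3 fell while 2 rose. Of 11 measured genes of the repressor list 5 rose in muscle, and of 12 in fat 7 rose. That list also held casein kinase genes and an F-box gene, which were called in neither tissue. Of 10 output genes, 6 rose and 1 fell in muscle, and 6 rose and 3 fell in fat. Ciart was in both the repressor and the output list, so its rise counts in each. The median change of the repressors was 0.33 in muscle and 0.93 in fat, beside medians over all measured genes of -0.02 and -0.03. Over all measured genes 5.69% rose in muscle and 11.3% in fat. Without swim array 46 the risers in muscle numbered 2 repressors and 3 output genes, and without swim array 47 they numbered 3 and 4. Unscaled, 3 output genes rose in muscle. The 2 activators that rose in fat numbered 0 or 1 in each fit with a fat array left out.

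Promoters of 3 clock genes are shown because they hold sequences that clock proteins are known to bind: CACGTG, an E-box bound by the BMAL1 and CLOCK pair, and TTATGTAA or TTACGTAA, a D-box bound by the factors Tef, Hlf and Dbp and by their repressor Nfil3. They come from RefSeq on GRCm38.p6 and run 5′ to 3′ along the gene's strand, from 250 bases before the start to 50 after it, with the matches in capitals.
Ciart, chr3:95882179-95882478, minus strand: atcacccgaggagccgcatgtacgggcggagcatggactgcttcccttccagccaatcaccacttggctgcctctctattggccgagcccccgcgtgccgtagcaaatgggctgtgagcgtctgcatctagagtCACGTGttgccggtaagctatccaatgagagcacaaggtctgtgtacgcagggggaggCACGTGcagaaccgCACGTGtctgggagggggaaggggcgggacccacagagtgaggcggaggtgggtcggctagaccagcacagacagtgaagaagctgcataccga
Per3, chr4:151044616-151044915, minus strand: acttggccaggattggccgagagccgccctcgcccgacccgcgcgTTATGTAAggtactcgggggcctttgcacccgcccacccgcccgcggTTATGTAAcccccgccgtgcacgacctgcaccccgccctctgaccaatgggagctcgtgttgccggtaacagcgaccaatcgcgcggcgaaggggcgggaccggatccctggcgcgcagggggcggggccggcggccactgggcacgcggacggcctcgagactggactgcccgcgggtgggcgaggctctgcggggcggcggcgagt
Bhlhe41, chr6:145865371-145865670, minus strand: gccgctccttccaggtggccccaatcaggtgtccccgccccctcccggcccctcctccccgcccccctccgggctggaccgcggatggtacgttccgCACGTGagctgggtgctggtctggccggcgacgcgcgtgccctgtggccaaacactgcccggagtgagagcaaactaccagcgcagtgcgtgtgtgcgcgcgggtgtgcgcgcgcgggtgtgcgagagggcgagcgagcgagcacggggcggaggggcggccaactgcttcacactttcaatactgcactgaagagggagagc
Ciart held 3 E-boxes, Bhlhe41 1 E-box and Per3 2 D-boxes. Both strands were searched, CACGTG reads alike on both, and no match overlapped another. CACGTG occurred in 7.15% of the 32851 promoters of that length, and TTATGTAA or TTACGTAA in 1.06%. AGGTCA, a nuclear receptor site that REV-ERB and ROR proteins are known to bind, occurred in 16.3% of them, and in the promoters of Arntl and Clock among activators and of Nr1d2 and Per1 among repressors. Of the 9 listed repressors with a promoter in the table, 4 held an E-box (Bhlhe41, Ciart, Cry1 and Per1) and 1 a D-box. Of 6 activators with one, 0 held an E-box or a D-box. A match says only that the letters are present, and the genes that hold them include Cry1, whose change passed in neither tissue.

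Arntl, which encodes BMAL1, stood at 7.31, 7.33 and 7.31 in swim muscle, against 9.11, 9.01, 9.18 and 8.52 in control muscle. In fat it stood at 5.36, 5.54, 5.19 and 5.53 in swim visceral fat, against 7.82, 7.61, 7.73 and 7.57 in control visceral fat. Every swim array was below every control array in both tissues, and the fall was deeper in fat. Swim fat, at 5.19 to 5.54, was near the dim end. The effect was -1.64 ± 0.15 in muscle (limma, SE, adjusted p = 0.00385) and -2.28 ± 0.10 in visceral fat (adjusted p = 1.97e-06). The difference of 0.64 ± 0.18 passed the limma test narrowly (adjusted p = 0.0313) and was lost under 6 of 13 other settings and in 6 of 15 fits with an array left out.

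Npas2, which can stand in for Clock as BMAL1's partner, stood at 5.06, 5.11 and 5.10 in swim muscle, against 6.79, 6.13, 6.72 and 6.26 in control muscle. Its levels in fat were 5.34, 5.75, 5.40 and 5.41 in swim visceral fat, against 7.62, 7.21, 7.86 and 7.45 in control visceral fat. Swim levels in both tissues were near the dim end, where changes are compressed. The 3 swim muscle arrays lay within a narrow band while controls spread more widely, and neither tissue showed overlap. Its effects were -1.38 ± 0.16 in muscle and -2.06 ± 0.14 in visceral fat, and their difference did not pass (limma, adjusted p = 0.0595). Clock itself had -0.43 ± 0.09 in muscle and -0.49 ± 0.07 in fat, and both passed. Arntl2, a BMAL1 relative, rose in fat by 0.44 ± 0.12 with a change of -0.20 in muscle that did not pass, and the 2 effects differed (limma, adjusted p = 0.0187). Rora, an activator of Arntl transcription, rose in fat by 0.34 ± 0.11 and had 0.09 in muscle, which did not pass. With 1 array left out, the call of Clock in muscle was kept in 2 of 7 fits, that of Arntl2 in fat in 3 of 8 and that of Rora in fat in 1 of 8.

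Ciart, a repressor that blocks BMAL1 and CLOCK, had the largest shared rise by the smaller of its 2 changes. It stood at 8.69, 8.76 and 8.70 in swim muscle, against 6.10, 6.55, 5.98 and 7.37 in control muscle. Fat arrays gave it values of 7.62, 8.16, 7.88 and 8.07 in swim visceral fat, against 5.16, 4.95, 4.91 and 4.94 in control visceral fat. Control fat was near the dim end and control muscle spread by more than 1 unit, yet no swim array fell among the controls. The rise was 2.22 ± 0.30 in muscle and 2.95 ± 0.12 in fat, and the difference did not pass (limma, adjusted p = 0.145). Without swim array 46 the rise in muscle did not pass.

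Per2, a core period repressor, stood at 8.27, 8.37 and 8.50 in swim muscle, against 5.93, 6.78, 6.37 and 6.72 in control muscle. The fat levels were 8.47, 8.38, 8.54 and 8.92 in swim visceral fat, against 6.88, 7.01, 7.33 and 6.50 in control visceral fat. It rose by 1.93 ± 0.19 in muscle and 1.65 ± 0.17 in fat, and the difference of 0.28 did not pass (limma, adjusted p = 0.524). Per1, whose gene also answers glucocorticoids and cyclic AMP, rose by 1.25 ± 0.27 in muscle and 0.75 ± 0.24 in fat. Its control arrays were spread widely, and in fat 1 control array, number 3 at 9.20, lay within the swim range. The Per1 calls were kept in 2 of 7 fits with a muscle array left out and in 1 of 8 with a fat array left out.

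Per3, the third period gene, rose more in fat than in muscle. It stood at 8.43, 8.62 and 8.57 in swim muscle, against 6.85, 7.27, 6.95 and 7.53 in control muscle. In fat it stood at 9.67, 9.59, 9.71 and 9.87 in swim visceral fat, against 7.51, 7.63, 7.59 and 7.74 in control visceral fat. The 2 rises were 1.39 ± 0.16 and 2.09 ± 0.08, and their difference of -0.71 ± 0.18 passed (limma, adjusted p = 0.0192), as it did in 14 of 15 fits with an array left out, swim muscle array 45 the exception.

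Some repressors had a larger effect in fat than in muscle. Bhlhe41 (DEC2), a repressor of BMAL1 and CLOCK activity, stood at 9.92, 9.82 and 9.72 in swim muscle, against 9.99, 9.63, 9.36 and 10.13 in control muscle, and the groups overlapped. Its levels in fat were 8.58, 9.18, 8.92 and 9.01 in swim visceral fat, against 7.74, 7.52, 7.33 and 7.51 in control visceral fat, with no overlap. It rose in fat by 1.39 ± 0.13, its change in muscle was 0.04 ± 0.18, and the difference of -1.35 ± 0.23 passed (limma, adjusted p = 0.00244).

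Nr1d2 (REV-ERB beta), which represses Arntl, stood at 9.99, 10.22 and 10.23 in swim muscle, against 9.77, 9.95, 9.76 and 9.94 in control muscle. Fat arrays gave it values of 9.86, 9.85, 9.98 and 9.69 in swim visceral fat, against 8.65, 8.92, 8.74 and 8.66 in control visceral fat. It rose in fat by 1.10 ± 0.09, while the muscle change of 0.29 ± 0.09 did not pass although its arrays did not overlap. The difference passed (limma, adjusted p = 0.00146). Tef, an activator at D-boxes, stood at 10.09, 10.14 and 10.08 in swim muscle, against 9.62, 9.87, 9.71 and 9.83 in control muscle. The fat levels were 10.16, 10.01, 10.02 and 10.03 in swim visceral fat, against 8.67, 8.90, 8.62 and 8.94 in control visceral fat. It rose in both, by 0.34 ± 0.07 and 1.27 ± 0.09, and more in fat (limma, adjusted p of the difference = 0.000434). The muscle call of Tef was kept in 2 of 7 fits with an array left out.

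Other output genes kept the shared direction. Hlf, a relative of Tef, rose by 0.94 ± 0.09 in muscle and 1.49 ± 0.14 in fat. Wee1, a cell-cycle kinase under clock control, rose by 0.78 ± 0.07 and 0.70 ± 0.07. Usp2, a deubiquitinase that follows the clock, rose by 0.47 ± 0.11 and 0.94 ± 0.10. Tspan4, a tetraspanin, rose by 1.06 ± 0.09 in muscle and 0.44 ± 0.11 in fat, the output gene whose difference passed in the direction of muscle (limma, adjusted p = 0.0137). Pdk4, the kinase that shuts off pyruvate dehydrogenase and rises in fasting, fell in both, with -0.95 ± 0.20 in muscle and -0.48 ± 0.14 in fat. Nfil3 fell in fat, with -0.68 ± 0.14, and its muscle value of -0.47 did not pass. Bhlhe40 (DEC1) rose in fat by 1.30 ± 0.29, with 1 control array, number 1, inside the swim range, while Cry2 rose in muscle by 0.56 ± 0.10 and had 0.18 in fat, which did not pass. With a muscle array left out, the muscle calls of Usp2, Pdk4 and Cry2 were kept in 1 of 7, 2 of 7 and 5 of 7 fits, and that of Pdk4 in fat in 3 of 8 with a fat array left out.

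**Figure D2:**
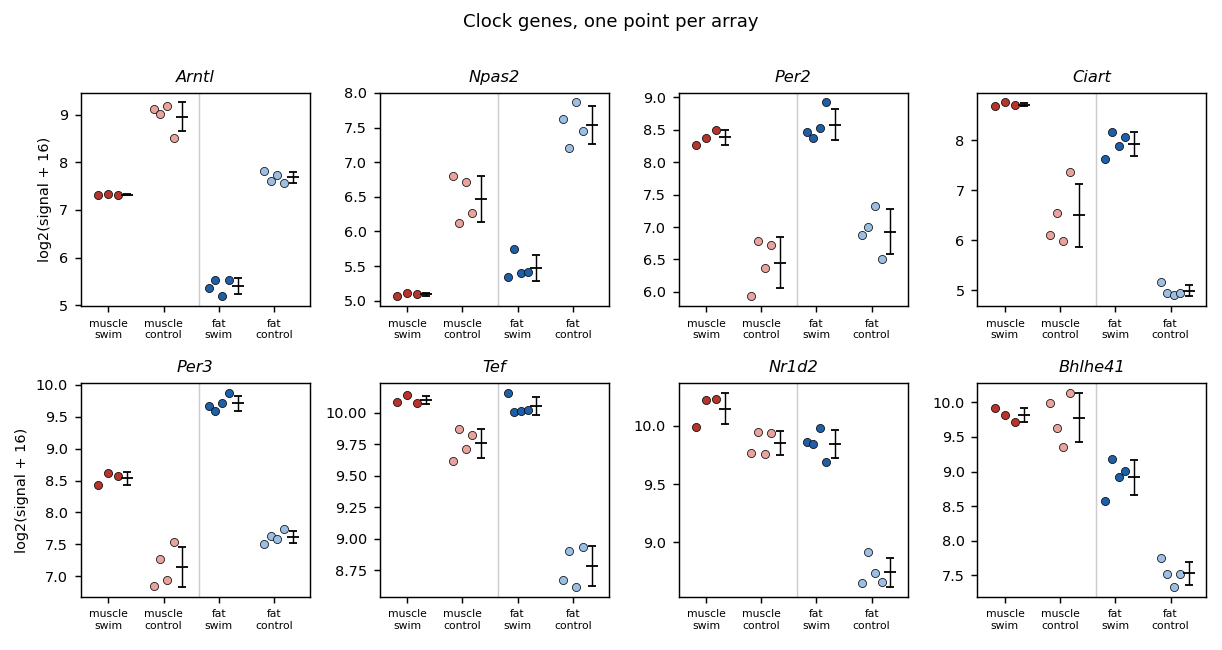
Level of 8 clock genes, log2(signal + 16), in each array of swim muscle, control muscle, swim visceral fat and control visceral fat; points are arrays, bars to their right the mean and SD (n = 3 swim muscle arrays, 4 in each other group). Arntl and Npas2 lie lower and Per2, Ciart, Per3 and Tef higher in the swim arrays of both tissues without overlap, while Bhlhe41 separates in fat and overlaps in muscle.

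Several fatty acid synthesis genes rose in both tissues. Of 21 measured members, 8 rose in muscle and 11 in visceral fat. By limma 0 fell in either tissue, and at an unadjusted p under 0.05 17 rose and 0 fell in muscle and 12 rose and 0 fell in fat. At that unadjusted level 1625 of all 11344 genes rose in muscle and 1944 of all 11461 in fat. The median change of the list was 0.66 in muscle and 0.37 in fat, and with each array centred on its median it was 0.55 in muscle and close to 0 in fat, with 4 members higher and 3 lower there. Over all measured genes 5.69% rose in muscle and 11.3% in fat. Synthesis genes that rose in muscle numbered 0 without swim array 46 or 47 or control array 43 or 44, 1 and 2 without control arrays 41 and 42, and 12 without swim array 45. In fat they numbered 5 without swim array 6 or 7, 7 without swim array 5 or control array 1, and 4 unscaled. Called in both were Acaca, Acly, Elovl6, Fasn, Insig1 and Mlxipl. Of triglyceride esterification genes, 1 of 12 rose and 1 fell in muscle, and 4 of 14 rose and 1 fell in fat, though centring on medians left 0 higher and 4 lower in fat, and the fat rises numbered 1 or 2 in each fit with a fat array left out. Dgat1, which makes triglyceride from diacylglycerol, rose in both, by 0.71 ± 0.15 in muscle and 0.54 ± 0.09 in fat. Differences between tissues passed for 3 synthesis genes in the direction of muscle (Elovl5, Fasn, Scd1) and for 2 in the direction of fat (Me1, Mlxipl). They passed for 0 of 12 esterification genes by limma, of which 2 were higher and 4 lower at an unadjusted p under 0.05. Of the 10499 genes measured in both, 1597 were higher and 1568 lower at that unadjusted level. Of all genes measured in both, 6.91% had the muscle effect higher and 7.11% lower.

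Fasn, the fatty acid synthase, stood at 9.81, 11.40 and 11.23 in swim muscle, against 9.39, 7.35, 8.17 and 9.46 in control muscle. In fat, where it was among the brightest genes, it stood at 13.10, 13.24, 13.17 and 13.17 in swim visceral fat, against 12.80, 12.95, 12.48 and 12.98 in control visceral fat. The rise was 2.22 ± 0.58 in muscle (limma, adjusted p = 0.0473) and 0.37 ± 0.11 in fat (adjusted p = 0.0371), and the difference passed narrowly (limma, adjusted p = 0.0488). In muscle, swim array 45 was little above the highest control. The fat rise was kept in 2 of 8 fits with an array left out and the difference in 3 of 15. That difference was kept under 7 of 14 other settings. It was lost, among others, with no filter on dim genes and with each tissue's own spread. Fasn ranked 5 to 11 of all genes in swim fat and 17 to 55 in control fat, near the top of the scale, where changes are compressed.

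Elovl6, which elongates palmitate, stood at 7.25, 9.73 and 9.60 in swim muscle, against 6.92, 5.91, 5.90 and 7.20 in control muscle. In fat it stood at 10.98, 11.75, 11.90 and 10.98 in swim visceral fat, against 10.12, 10.39, 8.76 and 10.72 in control visceral fat. It rose by 2.38 ± 0.62 and 1.40 ± 0.39, with no test passed for the difference (limma, adjusted p = 0.419). Acly, which makes cytosolic acetyl-CoA, stood at 8.30, 9.93 and 9.60 in swim muscle, against 7.85, 6.96, 7.05 and 7.99 in control muscle, and Acaca, which makes malonyl-CoA, at 8.52, 10.01 and 9.96 in swim muscle, against 8.27, 7.45, 7.69 and 8.29 in control muscle. Both followed the Fasn pattern, with array 45 close to the controls. Acly rose by 1.81 ± 0.41 in muscle and 1.20 ± 0.34 in fat, and Acaca by 1.57 ± 0.38 and 0.72 ± 0.13. The fat calls of Acly and Elovl6 were kept in 4 of 8 and 6 of 8 fits with a fat array left out.

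In muscle these genes moved with adipocyte markers in some arrays and not in others. Swim arrays 46 and 47 had the highest levels of both, and control array 42 the lowest adipocyte level and low values of Fasn, Acly and Acaca. Adipocyte markers themselves did not pass in muscle: Adipoq had 1.06 ± 0.60 (limma, adjusted p = 0.267), Plin1 1.11 ± 0.52 (adjusted p = 0.186) and Cidec 0.74 ± 0.55 (adjusted p = 0.387). Of 13 measured adipocyte genes 1 rose and 0 fell in muscle, beside 5.69% of all measured genes each way. Their median change in muscle was 0.46, beside -0.02 over all measured genes. The median difference between tissues was 0.76, beside 0.01 over all genes measured in both. The mean level of these adipocyte genes was 9.09 to 10.05 in swim muscle and 8.46 to 9.47 in control muscle. In whole tissue, fewer cells of a type and less RNA per cell cannot be told apart. With the mean of the 3 markers as a covariate in the muscle fit, chosen after seeing the data, Fasn had 1.34 (limma, adjusted p = 0.0611), Elovl6 1.57 (adjusted p = 0.0899), Acly 1.25 (adjusted p = 0.0525) and Acaca 1.02 (adjusted p = 0.0547), and 2 synthesis genes stayed past the threshold. Set against that marker mean array by array, Fasn was 2.05 to 2.16 units above it in swim muscle and from -0.05 to 1.48 in control muscle, without overlap. Elovl6 was -0.41 to 0.47 in swim muscle and -2.32 to -0.48 in control muscle on the same footing. Every other gene set against the marker mean overlapped, among them Acly, Acaca, Thrsp, Scd1 and Dgat1. With the covariate the difference of Fasn between tissues was 0.97 and did not pass (limma, adjusted p = 0.1001). The muscle calls of Fasn, Elovl6, Acly, Acaca and Thrsp were also lost on leaving out any muscle array except swim array 45. Fasn was at 1.80 to 2.51 in those fits, and the direction was kept.

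**Figure D3:**
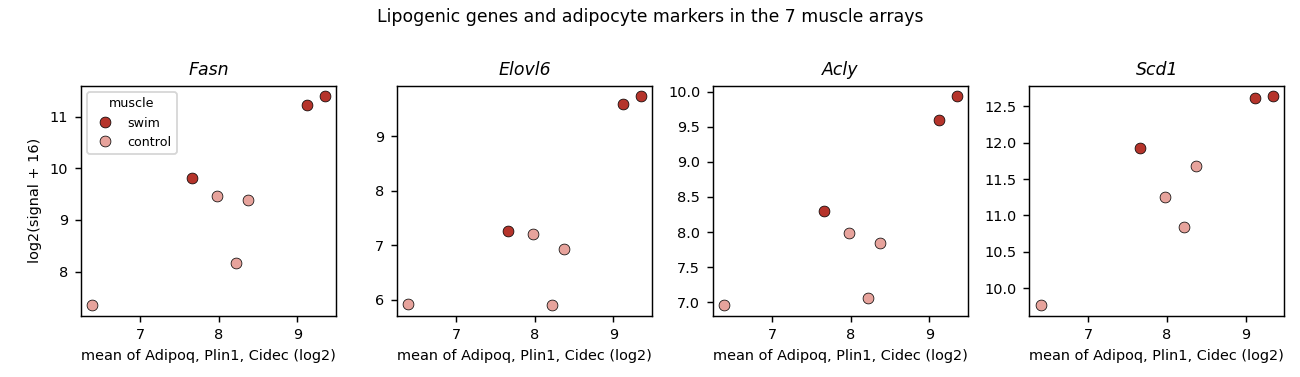
Level of Fasn, Elovl6, Acly and Scd1, log2(signal + 16), against the mean log2 level of the adipocyte markers Adipoq, Plin1 and Cidec in the 7 muscle arrays, dark points swim and light points control. Swim arrays 46 and 47, at 9.35 and 9.12, are highest on both axes, and at a marker mean near 8 swim array 45 lies above or level with the controls.

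Adipocyte markers in visceral fat lay close together. Adipoq stood at 12.86, 12.86, 12.84 and 12.79 in swim visceral fat, against 12.91, 12.77, 13.08 and 12.93 in control visceral fat, and the mean over 14 adipocyte genes was 12.36 to 12.41 in swim fat and 12.32 to 12.50 in control fat. Acly stood at 12.32, 12.95, 12.72 and 12.12 in swim visceral fat, against 11.16, 11.65, 10.35 and 12.17 in control visceral fat, with control array 4 among the swim values. Tkt, a pentose phosphate enzyme that feeds NADPH supply, rose in fat by 1.16 ± 0.18, and Me1, the malic enzyme that makes NADPH, by 0.69 ± 0.16. In muscle Me1 had 0.07 ± 0.07 and the difference passed (limma, adjusted p = 0.0463). That difference was kept in 4 of 15 fits with an array left out.

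Mlxipl (ChREBP), the carbohydrate-responsive activator of lipogenic genes, stood at 9.76, 9.76 and 9.59 in swim muscle, against 9.34, 9.52, 9.47 and 9.39 in control muscle. Its levels in fat were 10.33, 10.40, 10.43 and 10.30 in swim visceral fat, against 8.87, 9.31, 9.43 and 9.51 in control visceral fat. Its rise was 0.28 ± 0.07 in muscle and 1.08 ± 0.13 in fat, the reverse of Fasn in relative size, and the difference passed (limma, adjusted p = 0.00579). Unscaled values gave a muscle effect of -4e-04 for it. Srebf1, the other main lipogenic activator, rose in fat by 0.35 ± 0.10, or -0.08 with arrays centred on their medians, and had 0.43 in muscle, which did not pass. Insig1, which holds SREBP in the endoplasmic reticulum and is itself an SREBP target, rose by 0.68 ± 0.13 in muscle and 0.84 ± 0.12 in fat. With 1 array left out, the muscle calls of Mlxipl, Insig1 and Dgat1 were kept in 0 of 7, 3 of 7 and 3 of 7 fits, and the fat call of Srebf1 in 2 of 8.

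Scd1, the main stearoyl-CoA desaturase, stood at 11.93, 12.64 and 12.62 in swim muscle, against 11.68, 9.77, 10.84 and 11.26 in control muscle. Fat arrays gave it values of 13.20, 13.37, 13.37 and 13.37 in swim visceral fat, against 13.37, 13.33, 13.28 and 13.37 in control visceral fat, ranks 2 to 7 of all genes in swim arrays and 2 to 5 in control arrays, at the top of the scale. Its muscle change of 1.51 ± 0.42 did not pass by itself (limma, adjusted p = 0.0522), and the difference of 1.52 ± 0.42 did (adjusted p = 0.0277). Elovl5, which elongates polyunsaturated fatty acids, rose in muscle by 0.46 ± 0.10 and had -0.13 in fat, which did not pass, and its difference passed (limma, adjusted p = 0.00645). The difference of Scd1 was lost without swim muscle array 46 or 47, and the muscle call of Elovl5 was kept in 1 of 7 fits with an array left out.

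Outside clock and lipogenic lists, the shared rises named by rank included Fabp5, an epidermal-type fatty acid binding protein also made by macrophages, at 0.88 ± 0.23 in muscle and 0.76 ± 0.13 in fat, with its muscle groups overlapping. The noncoding transcripts 9530091C08Rik and Lncpint rose by 1.19 ± 0.11 and 0.88 ± 0.13 in muscle and by 1.85 ± 0.15 and 1.25 ± 0.18 in fat. Shared falls were led, after Arntl and Npas2, by Htra4, a serine protease, at -1.15 ± 0.21 and -1.61 ± 0.29. Creb3l1, a membrane-bound transcription factor of the secretory pathway, gave -0.89 ± 0.15 and -1.0 ± 0.12, and Sdf2l1, an endoplasmic reticulum chaperone cofactor, -0.77 ± 0.11 and -0.79 ± 0.12. Egr1, an immediate early transcription factor, stood at 5.89, 6.27 and 5.99 in swim muscle, against 7.23, 7.14, 6.56 and 6.65 in control muscle, and at 6.27, 6.17, 6.03 and 6.57 in swim visceral fat, against 7.91, 7.81, 7.94 and 7.01 in control visceral fat. It fell in both without overlap. With a muscle array left out, the muscle calls of Egr1, Htra4 and Fabp5 were kept in 2 of 7, 4 of 7 and 1 of 7 fits, and those of Lncpint, Creb3l1 and Sdf2l1 were lost without swim array 46. Tead4, a partner of YAP with a role in myogenesis, fell more in muscle, -1.36 ± 0.14 against -0.61 ± 0.11 in fat (limma, adjusted p of the difference = 0.0169).

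Among genes that went opposite ways, Tst, the mitochondrial sulfurtransferase rhodanese, ranked first in the direction of muscle by the smaller of its 2 changes. It stood at 8.44, 8.61 and 8.48 in swim muscle, against 7.35, 7.70, 7.31 and 7.55 in control muscle. The fat levels were 9.39, 9.45, 9.78 and 9.47 in swim visceral fat, against 10.13, 10.76, 10.25 and 10.29 in control visceral fat. It rose in muscle by 1.03 ± 0.10 and fell in fat, with -0.84 ± 0.14, without overlap in either tissue, and the difference of 1.87 ± 0.19 passed (limma, adjusted p = 0.000138) in each of the 15 fits with an array left out.

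Bcat2, the mitochondrial enzyme that starts breakdown of leucine, isoleucine and valine, stood at 9.55, 9.61 and 9.62 in swim muscle, against 9.11, 9.05, 9.12 and 9.12 in control muscle. In fat it stood at 11.07, 11.05, 11.18 and 11.17 in swim visceral fat, against 11.44, 11.40, 11.74 and 11.60 in control visceral fat. It rose by 0.49 ± 0.05 in muscle, changed by -0.43 ± 0.09 in fat, and the difference passed (limma, adjusted p = 0.000249). Of 18 measured genes of branched-chain amino acid catabolism, 4 rose and 1 fell in muscle, 1 rose and 5 fell in fat, and 4 differed, all with the muscle effect above the fat effect. The 3 besides Bcat2 were Ivd at 0.37 in muscle and -0.20 in visceral fat, Dbt at 0.26 in muscle and -0.23 in visceral fat and Mccc2 at 0.14 in muscle and -0.26 in visceral fat, enzymes further down the pathway. Its median was 0.09 in muscle and -0.18 in fat, and the muscle median turned to -0.16 unscaled and -0.04 with arrays centred on their medians, while the median difference stayed above 0 at 0.25 and 0.48. Dbt had -0.02 in muscle unscaled. Centred arrays gave 0 rises and 1 fall in muscle, 0 rises and 17 falls in fat and 9 differences, and unscaled values 0 calls in muscle, 1 fall in fat and 1 difference, each difference with the muscle effect higher. Rises in muscle numbered 1 without swim array 46 and 2 without swim array 47 or any control array, falls in fat 1 without control array 3, 2 without control array 4 or swim array 5 or 8 and 3 without swim array 7, and differences 2 without swim muscle array 46. Over all measured genes 5.69% rose in muscle, 12.1% fell in fat and 6.91% had the muscle effect higher. With 1 array left out, the muscle calls of Ivd and Dbt were kept in 1 of 7 and 1 of 7 fits, the fat call of Mccc2 in 6 of 8, and the differences of Dbt and Mccc2 in 7 of 15 and 14 of 15.

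Several smooth muscle and pericyte genes rose in muscle. Of 10 measured, 6 rose and 0 fell in muscle by limma (9 and 0 at an unadjusted p under 0.05), 3 rose and 1 fell in fat, and the muscle effect was above the fat effect for 5 and below it for 1. Unadjusted, 1625 of all 11344 genes measured in muscle rose and 1952 fell. Of all genes measured in both, 6.91% had the muscle effect higher and 7.11% lower. The list's median was 0.56 in muscle and -0.15 in fat. Centred arrays gave 2 rises and 6 falls in fat. The rises in muscle numbered 1 without swim array 46, 3 without swim array 47 or control array 44 and 9 without swim array 45, beside 5.69% of all measured genes. Acta2, smooth muscle actin, stood at 10.47, 10.92 and 11.07 in swim muscle, against 9.50, 9.78, 9.89 and 9.56 in control muscle, and in fat at 11.04, 11.23, 10.89 and 10.91 in swim visceral fat, against 11.75, 11.71, 11.09 and 11.21 in control visceral fat. It rose by 1.14 ± 0.16 in muscle, its fat change of -0.42 ± 0.16 did not pass, and the difference did (limma, adjusted p = 0.00134). Tagln, the actin binder transgelin, stood at 7.83, 8.0 and 8.37 in swim muscle, against 6.83, 6.50, 7.31 and 6.95 in control muscle, and in fat at 8.10, 8.52, 8.23 and 8.30 in swim visceral fat, against 8.79, 9.60, 8.75 and 8.42 in control visceral fat. Its difference was 1.77 ± 0.32 (limma, adjusted p = 0.00308). Myl9, a smooth muscle myosin light chain, was called both ways, 0.90 ± 0.12 in muscle and -0.49 ± 0.15 in fat. Cnn1, calponin, fell in fat by 1.10 and had 1.0 ± 0.34 in muscle, which did not pass. It was near the dim end in control muscle, at 5.13 to 5.16 except for 5.90 in array 43. Without swim array 47 Cnn1 did not count as measured in muscle, so its difference was not tested there. Cspg4 (NG2), a pericyte proteoglycan, went the other way, rising in fat by 1.23 ± 0.12 with 0.45 in muscle. The muscle calls of Acta2, Tagln and Myl9 were lost without swim array 46, and the fat calls of Myl9 and Cnn1 were kept in 3 of 8 and 4 of 8 fits with a fat array left out.

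Lcn2, a lipocalin of acute-phase and neutrophil origin, had the largest difference in the direction of muscle. It stood at 8.66, 8.70 and 8.41 in swim muscle, against 5.88, 5.85, 6.73 and 6.27 in control muscle, with swim arrays more than 1 unit above every control. Its levels in fat were 8.61, 6.96, 7.48 and 7.51 in swim visceral fat, against 9.49, 7.47, 7.43 and 6.80 in control visceral fat, with overlap. It rose in muscle by 2.41 ± 0.21, the fat value was -0.15 ± 0.53, and the difference was 2.56 ± 0.66 (limma, adjusted p = 0.021). Of 13 neutrophil genes on the array Lcn2 was the only one measured in muscle. Lrg1, another acute-phase protein, fell in fat by 1.20 and had 0.26 in muscle.

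Several immediate early genes fell in fat. Of 21 measured 0 rose and 6 fell in fat by limma (2 and 7 at an unadjusted p under 0.05), 3 rose and 2 fell in muscle, and the 3 whose effects differed all had the higher effect in muscle. Unadjusted, 1944 of all 11461 genes measured in fat rose and 2394 fell. Among all measured genes 12.1% fell in fat, and 5.69% rose and 5.69% fell in muscle. The muscle effect was higher for 6.91% of those measured in both. Centred arrays gave 0 rises and 1 fall in muscle, 10 falls in fat and 9 differences, and without swim array 46 there were 0 calls in muscle. Nr4a1, an orphan nuclear receptor induced by activity, stood at 11.10, 10.89 and 10.96 in swim muscle, against 10.32, 11.15, 10.96 and 10.54 in control muscle. Fat arrays gave it values of 5.43, 5.57, 5.30 and 5.52 in swim visceral fat, against 6.79, 7.22, 7.60 and 6.78 in control visceral fat. The difference was 1.88 ± 0.27 (limma, adjusted p = 0.000949), with swim fat near the dim end. Myc, the growth transcription factor, rose in muscle by 0.51 ± 0.10 and changed by -0.85 ± 0.16 in fat, a call in opposite directions. Fosl2, an AP-1 subunit, had 0.18 in muscle and -0.85 in visceral fat. Gadd45g, a stress-response gene, had 0.13 in muscle and -1.64 in visceral fat, and Cdkn1a, the cell-cycle inhibitor p21, -0.41 in muscle and -1.82 in visceral fat, where the fat values passed and the muscle values did not. Slc25a25, a mitochondrial ATP-Mg carrier, had 1.36 in muscle and -0.99 in visceral fat, the fat value alone passing. The muscle call of Myc was kept on leaving out 1 array in 3 of 7 fits, the fat call of Slc25a25 in 1 of 8 and its difference in 6 of 15.

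Several macrophage genes rose in fat, and some fell in muscle. Of 22 measured in fat 7 rose and 1 fell, of 18 in muscle 1 rose and 3 fell, and 8 of 18 differed, all with the fat effect higher. Among all measured genes 11.3% rose in fat, 5.69% fell in muscle and 7.11% had the fat effect higher. The falls in muscle numbered 7 without control array 43, 2 without swim array 45 and 0 without each other muscle array. The median was -0.36 in muscle and 0.36 in fat. The mean level of the list was 6.40 to 6.56 in swim muscle and 6.52 to 7.15 in control muscle, and 8.23 to 8.90 in swim fat and 7.74 to 8.44 in control fat. Ranges overlapped in both tissues, and fat swim array 5 and fat control array 1 were highest in their groups.

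Mpeg1, the macrophage perforin, stood at 5.31, 5.55 and 5.02 in swim muscle, against 6.18, 6.83, 5.67 and 6.52 in control muscle. The fat levels were 9.17, 8.28, 8.35 and 8.34 in swim visceral fat, against 7.62, 7.37, 7.23 and 7.03 in control visceral fat. It was called in opposite directions without overlap, -1.0 ± 0.26 in muscle and 1.22 ± 0.20 in fat, and the difference passed (limma, adjusted p = 0.00146) in all 15 fits with an array left out. Its muscle call was lost in 6 of 7 such fits, and swim muscle was near the dim end. Gpnmb, a glycoprotein of lipid-laden macrophages, stood at 6.45, 5.85 and 6.01 in swim muscle, against 6.33, 6.55, 5.96 and 7.71 in control muscle. In fat it stood at 10.68, 9.20, 9.12 and 9.63 in swim visceral fat, against 8.39, 7.31, 7.56 and 7.23 in control visceral fat. It rose in fat by 2.04 ± 0.35 and differed by -2.57 ± 0.56 (limma, adjusted p = 0.00868). Ctss, a lysosomal protease, had -0.75 in muscle and 1.21 in visceral fat, and Lgals3, galectin-3, -0.75 in muscle and 0.77 in visceral fat, the fat values passing. Adgre1 (F4/80) and Tyrobp, an adaptor of myeloid receptors, were called in opposite directions, with -0.51 in muscle and 0.59 in visceral fat and with -0.56 in muscle and 0.76 in visceral fat. Both muscle calls were kept in 1 of 7 fits with an array left out, the fat calls in 1 of 8 and 2 of 8, and the difference of Lgals3 in 7 of 15.

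Several collagen and matrix genes fell in muscle. Of 29 measured, 11 fell and 0 rose in muscle by limma (15 and 0 at an unadjusted p under 0.05), 2 rose and 3 fell among 28 in fat, and 7 of 28 differed, all with the muscle effect below the fat effect. At that unadjusted level 1625 of all 11344 genes measured in muscle rose and 1952 fell. Of all genes measured in both, 7.11% had the muscle effect below the fat effect. The median was -0.25 in muscle and -0.08 in fat. With arrays centred on their medians, 19 fell in fat, and the difference passed for 3 lower and 1 higher. The falls in muscle numbered 5 without swim array 46 and 7 without swim array 47 or control array 41, 42 or 44, beside 5.69% of all measured genes, and unscaled values gave 2 differences. Col3a1, a fibrillar collagen, stood at 8.29, 8.52 and 8.19 in swim muscle, against 9.54, 9.38, 9.02 and 9.28 in control muscle. Its levels in fat were 10.11, 9.95, 10.06 and 10.46 in swim visceral fat, against 10.24, 10.49, 10.46 and 10.16 in control visceral fat. It fell in muscle without overlap, -0.97 ± 0.13, and had -0.19 ± 0.12 in fat (limma, adjusted p of the difference = 0.0151). Col4a1, of basement membranes, had -0.86 in muscle and -0.07 in visceral fat, and Col5a2 -0.71 in muscle and 0.02 in visceral fat, the muscle values passing. Col15a1 and Col5a3 were called in opposite directions: -0.54 in muscle and 0.60 in visceral fat for Col15a1 and -0.79 in muscle and 0.35 in visceral fat for Col5a3. On leaving out 1 array, the muscle call of Col15a1 was kept in 1 of 7 fits, that of Col5a2 was lost without swim array 46, and the fat call of Col5a3 was kept in 3 of 8. Of 11 fibroblast and progenitor genes 1 fell in muscle.

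**Figure D4:**
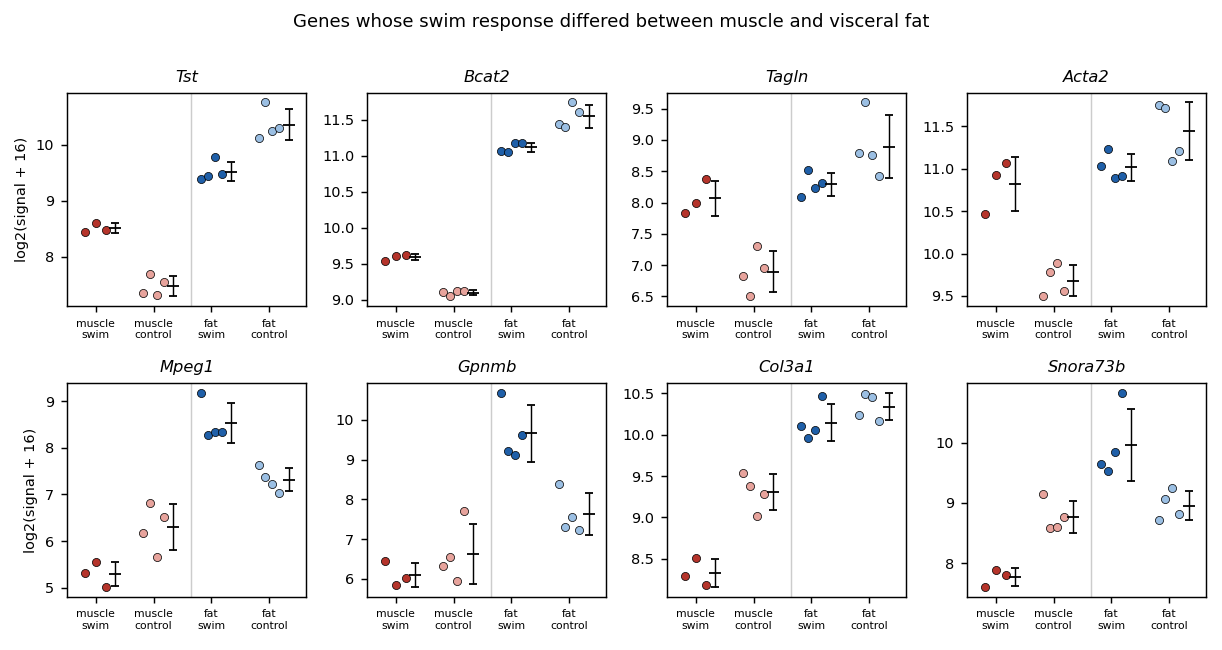
Level of 8 genes whose swim effect differed between the tissues, log2(signal + 16), in each array of swim muscle, control muscle, swim visceral fat and control visceral fat; points are arrays, bars to their right the mean and SD (n = 3 swim muscle arrays, 4 in each other group). Tst and Bcat2 lie higher in swim than control muscle and lower in swim than control fat, Mpeg1 and Snora73b the reverse, and Tagln, Acta2, Gpnmb and Col3a1 separate in 1 tissue.

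Small nucleolar RNAs, many but not all of which guide chemical modification of ribosomal RNA, formed a group picked after their values were seen. Of 46 measured in both tissues, 1 rose and 7 fell in muscle, 22 rose and 0 fell in fat by limma (0 fell at an unadjusted p under 0.05 too), and 17 differed, each with the fat effect higher. Over all measured genes 5.69% fell in muscle, 11.3% rose in fat and 7.11% had the fat effect higher. The falls in muscle numbered 0 without swim array 46 and 2 to 4 without each other muscle array, the rises in fat 12 without control array 4, and the differences 9 and 11 without muscle arrays 46 and 43. Snora73b stood at 7.61, 7.89 and 7.80 in swim muscle, against 9.15, 8.58, 8.60 and 8.76 in control muscle. Fat arrays gave it values of 9.64, 9.53, 9.84 and 10.82 in swim visceral fat, against 8.71, 9.07, 9.24 and 8.81 in control visceral fat. It was called in opposite directions, -1.01 ± 0.14 and 1.0 ± 0.25. Snora73a gave -0.85 in muscle and 0.97 in visceral fat and Snora74a -0.67 in muscle and 1.18 in visceral fat. Snora73a and Snora73b are near-identical copies that may share probes, so they count as 1 observation. Both lost their muscle call without swim array 46, Snora73b its fat call without control array 4, and the muscle call of Snora74a was kept in 2 of 7 fits. Gdap10 and Gm7265, transcripts without a role named here, rose in fat by 2.03 ± 0.15 and 1.79 ± 0.17 and had 0.03 and 0.02 in muscle.

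Several vessel genes rose in visceral fat. Of 20 measured angiogenesis genes 2 rose in muscle, beside 5.69% of all measured genes. Of 19 in fat 8 rose and 2 fell (5 and 5 with arrays centred on their medians, 1 and 1 unscaled), beside 11.3% and 12.1%. Differences passed for 2 in the direction of muscle and 3 in the direction of fat, beside 6.91% and 7.11% of all genes measured in both. Kdr, the main VEGF receptor of endothelium, rose in fat by 0.68 ± 0.07 and had 0.00 ± 0.14 in muscle (limma, adjusted p of the difference = 0.0116). Vegfa, its ligand, rose in fat by 0.52 ± 0.13 and had -0.20 in muscle, and Angpt1, a vessel-stabilising ligand, fell in fat by 0.97 with -0.30 in muscle. Without swim fat array 7 the fat rise of Vegfa did not pass. Of 16 endothelial markers 5 rose and 0 fell in muscle, and 8 rose and 1 fell in fat. Centred arrays gave 2 rises in muscle and 3 rises and 3 falls in fat, and unscaled values 0 rises in either tissue. The rises in muscle numbered 0 without swim array 46, 1 without swim array 47 or control array 41 or 44 and 2 without control array 42. Their mean level was 7.91 to 8.15 in swim muscle and 7.71 to 7.90 in control muscle. Whether the number of endothelial cells changed was not tested.

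Falls in muscle and rises in fat among respiratory chain genes came at shares near those over all measured genes. Of 46 measured 1 rose and 3 fell in muscle, where 5.69% of all genes rose and 5.69% fell, and of 45 in fat 5 rose and 0 fell, where 11.3% rose and 12.1% fell. The fat rises numbered 0 without swim array 7, and without each muscle array 0 or 1 fell in muscle. The effects differed for 10 of 45, with the fat effect higher for 9, beside 7.11% of all genes measured in both. With arrays centred on their medians, however, 31 fell in fat and the median difference turned to 0.13, against -0.13 with quantile scaling. Those 9 numbered 3 to 10 with 1 array left out, 0 unscaled and 1 with centring. Ndufs1, a complex I subunit, had -0.18 in muscle and 0.28 in visceral fat (-0.10 in fat with centring), Ndufa5, another, -0.14 in muscle and 0.50 in visceral fat, and Uqcrfs1, the complex III iron-sulfur protein, -0.35 in muscle and 0.04 in visceral fat. With 1 array left out, the fat call of Ndufs1 was lost without swim array 7, that of Ndufa5 was kept in 5 of 8 fits, the muscle call of Uqcrfs1 in 1 of 7 and its difference in 11 of 15. Of 31 genes of glucose uptake, glycolysis and glycogen, 0 passed in either direction in muscle by limma (4 were higher and 4 lower at an unadjusted p under 0.05), and 6 rose and 3 fell among 29 in fat. At that unadjusted level 1625 of all 11344 genes measured in muscle were higher and 1952 lower. For this list, centred arrays gave 0 rises and 12 falls in fat and unscaled values 0 and 2. The muscle effect was above the fat effect for 4 of 29, beside 6.91% of all genes measured in both. It was below for 6, beside 7.11%, and Slc2a4 and Hk2 are among these. Slc2a4 (GLUT4), the insulin-responsive glucose transporter, rose in fat by 0.49 ± 0.09 and had 0.06 ± 0.08 in muscle (limma, adjusted p of the difference = 0.0303, kept in 9 of 15 fits with an array left out), and Hk2, hexokinase 2, rose in fat by 0.56 ± 0.09 with -0.06 in muscle. Both fat calls were lost with centred and with unscaled arrays. Of 12 slow-fibre genes 1 fell in muscle.

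**Figure D5:**
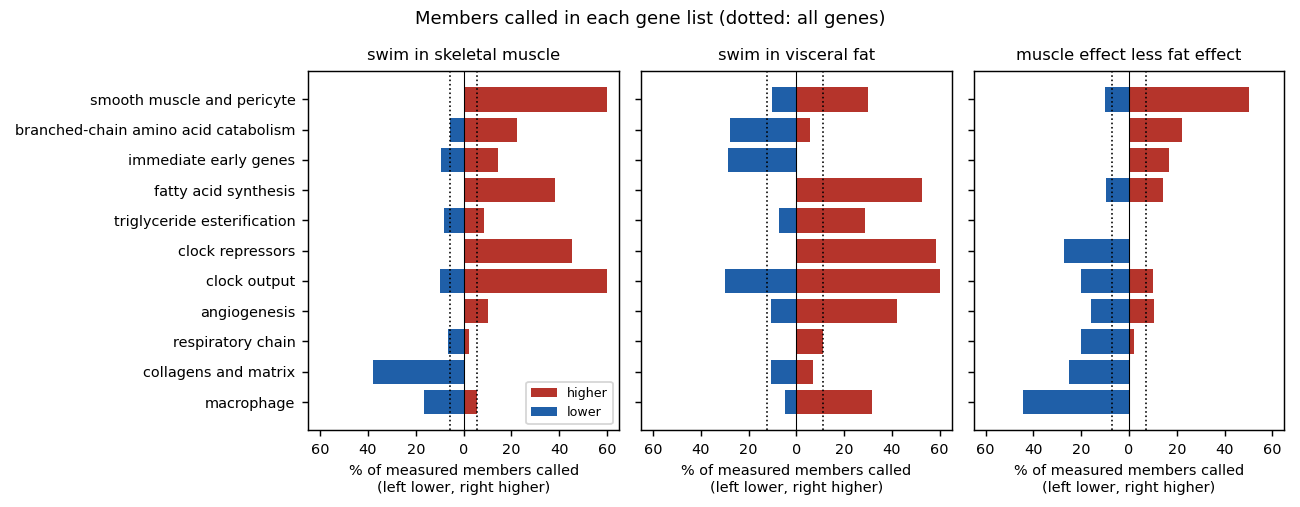
Share of measured members called in 11 gene lists, in percent, for swim in muscle, swim in visceral fat and the muscle effect less the fat effect, with higher calls to the right in red and lower calls to the left in blue; dotted lines give the shares over all measured genes. Clock repressors and fatty acid synthesis genes lie to the right in both tissues, and smooth muscle, macrophage and collagen lists lean to 1 side in the difference.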

How the data were processed

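RNA of whole skeletal muscle and visceral white adipose tissue was measured on Affymetrix gene arrays. The authors deposited 1 intensity value per probe set and array on a linear scale. PLIER and limma are named in the submitters' processing notes, and their versions and the genome build are not given in the sources used here. Unequal medians between arrays led to quantile scaling of log2(signal + 16) within each tissue. Of 25917 probe sets 21086 had 1 gene symbol, 1867 several and 2964 none. Each of 18759 genes was represented by its brightest probe set on average, under array names updated through RefSeq.

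A gene counted as measured above the lowest 40% by mean in that tissue. Groups followed the tissue and treatment labels. Swim was compared with control in each tissue by a limma fit of its own, and the difference in 1 fit of 15 arrays and 4 group means, with Benjamini-Hochberg adjustment over all measured genes and a threshold of 0.05 (R 4.3.3, limma 3.58.1, statmod 1.5.0; figures with Python 3.11.15 and matplotlib 3.10.9). Scripts were tested on simulated data.

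The comparison and the 57 gene lists (35 of function, 22 of composition, 963 names, 807 on the array) were chosen with earlier results of these data known. Named genes were the 12 largest differences each way, the 12 shared rises and falls and the 10 opposite changes each way ranked by the smaller change, clock, synthesis and esterification genes, up to 5 members of lists with 3 or more differing genes, and tissue markers, in part. Alternatives varied scaling, pseudocount, filter, variance model, arrays fitted and arrays left out. Levels carry no interval, since arrays give no counts.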

Additional observations from a re-analysis of the deposited data

Results flagged for a closer look

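Of 282 groups of 4 arrays examined for the genes named here, 21 held an array whose gap to the nearest of the others exceeded Dixon's critical share of the group's range, and chance alone gives about 1 group in 20. The 3 swim muscle arrays were too few for this examination. In visceral fat, swim array 5 stood above the other 3 for Lgals3, at 10.66 against 9.72 to 9.86, for Mpeg1, at 9.17 against 8.28 to 8.35, for Fosl2, at 7.74 against 7.38 to 7.39, and for Tef, at 10.16 against 10.01 to 10.03. It stood below them for Scd1, at 13.20 against 13.37, which is the top of the scale. Swim array 8 was high for Lncpint, at 10.42 against 10.00 to 10.04, and for Kdr, at 9.68 against 9.49 to 9.50. Swim array 7 was low for Col5a2, at 7.82 against 7.95 to 7.96.

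Among control fat arrays, number 3 was high for Dgat1, at 11.62 against 11.29 to 11.32, high for Pdk4, at 10.25 against 9.65 to 9.74, and low for Creb3l1, at 8.33 against 8.61 to 8.67. Control fat array 4 was low for Egr1, at 7.01 against 7.81 to 7.94, and high for Tkt, at 11.95 against 11.24 to 11.36. Control fat array 1 was high for Ciart, at 5.16 against 4.91 to 4.95, and low for 9530091C08Rik, at 5.52 against 5.89 to 5.96. In control muscle, array 42 was low for Adipoq, at 6.27 against 8.19 to 8.41, and for Esrra, at 8.08 against 8.35 to 8.36. Array 43 was high for Cnn1, at 5.90 against 5.13 to 5.16, and for Ndufs1, at 11.19 against 11.02 to 11.04. Array 41 was high for Gdap10, at 8.22 against 7.43 to 7.52, and array 44 low for Slc2a4, at 11.35 against 11.47 to 11.48.

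The swim effect differed between muscle and visceral fat for 1473 genes by limma's test of the difference with Benjamini-Hochberg adjustment. Among the genes named here, the largest differences, muscle effect minus fat effect in log2 units, were above 0 for Lcn2 (2.56), Slc25a25 (2.35), Cnn1 (2.10), Nr4a1 (1.88), Tst (1.87) and Fasn (1.85). They were below 0 for Gpnmb (-2.57), Mpeg1 (-2.23), Snora73b (-2.01), Gdap10 (-2.0), Ctss (-1.96) and Snora74a (-1.85). Those of Tst, Nr4a1, Gpnmb and Mpeg1 were called in each of 15 fits with an array left out, that of Fasn in 3 and that of Slc25a25 in 6.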

How the results depend on the processing

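Genes whose effect differed between tissues numbered 190 unscaled, 2277 with array weights and 712 in 1 fit of all 54 arrays, against 1473. Muscle calls numbered 408 unscaled, 596 with no filter on dim genes, 2752 with array weights and 625 in the fit of all arrays. Fat calls numbered 601 unscaled and 5207 with arrays centred on medians. Shared changes numbered 31 unscaled, 155 with no filter, 679 with array weights, 158 in the fit of all arrays and 39 where both changes also had to reach 1.5-fold. Opposite changes numbered 15, 21, 168, 34 and 6 in the same order. Leaving out each array in turn, differences ranged from 851 to 1457, muscle calls from 68 to 1139, fat calls from 1697 to 2346, shared changes from 26 to 307 and opposite changes from 7 to 62, the lowest without swim muscle array 46 except in fat. Unscaled values turned Dbt to -0.0215 and Mlxipl to -4e-04 in muscle, and centring turned Ndufs1 to -0.0967 and Srebf1 to -0.0836 in fat. The cause was not tested. Of the named genes, 23 of 56 muscle calls, 38 of 74 fat calls and 27 of 58 differences held in every other setting tried, arrays left out aside. Scaling over both tissues, pseudocounts of 1 and 64, a filter on the lowest 60%, trended and robust variances and the mean of probe sets kept all 5 counts within 1.5 times. With the adipocyte marker covariate, chosen after seeing the data, 1154 differences, 1232 muscle calls, 288 shared and 62 opposite changes were called. No paired analysis was possible because each array carried a number of its own and the groups shared none. Signal near background and at or near the top of the scale, as for Scd1 and Fasn in fat, compresses changes.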

Other observations

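Several genes of other lists also moved, and the 4 named in these paragraphs were chosen after their values were seen. Of 16 muscle atrophy and FoxO genes, 1 rose and 5 fell in muscle, beside 5.69% of all measured genes each way, and the falls numbered 1 to 4 in the fits with a muscle array left out. Trim63, the muscle ubiquitin ligase MuRF1, stood at 10.97, 11.00 and 10.81 in swim muscle, against 11.46, 11.86, 11.55 and 11.28 in control muscle, without overlap, and changed by -0.61 ± 0.13 (limma, adjusted p = 0.0283). That call was kept in 3 of 7 fits with a muscle array left out, and it was lost with the adipocyte marker covariate. Gabarapl1, an autophagosome protein, fell in both tissues, by 0.38 ± 0.10 in muscle and 0.35 ± 0.09 in fat, and its muscle call was kept in 0 of 7 such fits.

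Esrra, the nuclear receptor ERR alpha that drives mitochondrial genes, was called in opposite directions. It stood at 7.93, 7.96 and 7.93 in swim muscle, against 8.35, 8.08, 8.35 and 8.36 in control muscle, and at 7.69, 7.53, 7.36 and 7.70 in swim visceral fat, against 6.77, 7.28, 7.10 and 7.41 in control visceral fat. The change was -0.35 ± 0.08 in muscle and 0.43 ± 0.14 in fat, where 1 control array lay among the swim arrays, and the difference of -0.78 ± 0.17 passed (limma, adjusted p = 0.0106) in all 15 fits with an array left out. The tissue calls were kept in 1 of 7 and 2 of 8 fits. Of 15 measured lipolysis and lipid droplet genes in fat, 0 rose and 3 fell by limma (2 and 4 at an unadjusted p under 0.05), among them Pnpla2, the triglyceride lipase ATGL, with -0.27 ± 0.08 in fat, kept in 2 of 8 fits, and 0.03 ± 0.09 in muscle. Unadjusted, 1944 of all 11461 genes measured in fat rose and 2394 fell. Over all measured genes 12.1% fell in fat by limma, and the 3 falls of this list numbered 0 or 1 in each fit with a fat array left out, 0 unscaled and 10 with arrays centred on their medians. Of 18 measured interferon-stimulated genes in fat, 0 rose and 6 fell by limma (0 and 7 at an unadjusted p under 0.05), and 1 of 16 fell in muscle. Those 6 falls numbered 3 to 6 in the fits with a fat array left out and 1 unscaled.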
